A study of Arabidopsis thaliana with 8 samples.

Results

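The 4 genes described here encode parts of the cytosolic HSP70 chaperone system of Arabidopsis thaliana: the HSP70 genes HSC70-2 (AT5G02490, Hsp70-2 in the gene table) and HSC70-3 (AT3G09440), and AT1G71000 and AT2G20560, which encode J-domain (DnaJ-type) co-chaperones. They were chosen by name, with their higher levels after heat shock already known, and each was read by 1 probe set that the annotation pairs with no other gene. They are 4 of 13286 genes with such a probe set, on an Affymetrix array of 22810 probe sets. The samples were 7-day-old seedlings in 4 groups of 2 biological replicates, each a pool of about 100 plants: til1-1 collected at the end of heat shock at 37 °C, wild type (WT, Col-0) after the same treatment, til1-1 kept at 22 °C, and WT kept at 22 °C. The mutant is named for TIL (AT5G58070), the gene for temperature-induced lipocalin, a small membrane-associated protein that binds lipids. The sources used here say neither how the allele alters the gene nor how long the heat shock lasted.

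HSP70 proteins bind exposed hydrophobic stretches of unfolded proteins and release them in a cycle driven by ATP. J-domain proteins bring unfolded clients to HSP70 and stimulate its ATP hydrolysis, nucleotide exchange factors then replace ADP with ATP so that the client is released, and HOP proteins link HSP70 to HSP90. Plants carry several cytosolic HSP70 genes and a large family of J-domain genes, some transcribed at all times and others mainly after heat, when heat shock transcription factors activate them. In seedlings, more transcript per cell and more cells that carry the transcript cannot be told apart.

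Intensities are in arbitrary units, as deposited, and log2 differences are of log2(intensity + 16), which understates the change of dim probe sets. The array medians were 154.75 to 160.15 at 37 °C and 197.4 to 203.85 at 22 °C, and the replicates correlated at 0.978 to 0.991 across the tested probe sets. TIL itself read 5804 and 5342 in til1-1 at 37 °C, against 21246 and 20290 in WT at 37 °C. At 22 °C TIL read 3168 and 3048 in til1-1, against 3795 and 3132 in WT, and at that temperature the label was not borne out. Where the TIL probes lie with respect to the mutation is unknown here. Mutant samples are therefore named by their label, as samples labelled til1-1. Of the seedling tissue markers, 3 of 5 shoot genes and 3 of 3 root genes were measured, and none was at 0 in any sample.

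All 4 genes were many times higher after heat shock, in both genotypes. The HSP70 genes already gave a clear signal at 22 °C and were about 6 to 14 times brighter at 37 °C, while the J-domain genes were dim at 22 °C and read at least 14186 at 37 °C. On the log2 scale the order of the differences was AT1G71000, AT2G20560, HSC70-3 and HSC70-2 in both genotypes. Because the genes were chosen for this contrast, the values are a description and carry no test: 4 of 4 were higher by at least 2-fold in each genotype, as were 3.98% of the 17059 tested probe sets in samples labelled til1-1 and 4.06% in WT. By limma 44.3% and 43.7% of all probe sets changed with heat, in either direction, in those genotypes.

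HSC70-2 encodes an HSP70 of the cytosol and nucleus. In samples labelled til1-1 its intensity was 2026.5 and 2261 at 37 °C, against 311.5 and 428.2 at 22 °C. In WT it was 2369.3 and 2088 at 37 °C, against 281.6 and 402.5 at 22 °C. Every heat-shocked sample was thus above every sample at 22 °C, and the genotypes overlapped at each temperature. The log2 difference between 37 °C and 22 °C was 2.50 ± 0.17 (standard error, here and below for log2 differences) in samples labelled til1-1 and 2.67 ± 0.17 in WT. The means at 37 °C were 2144 ± 166 in samples labelled til1-1 and 2229 ± 199 in WT, and those at 22 °C were 369.9 ± 82.5 and 342.1 ± 85.5 in those genotypes (SD, n = 2 each), so that the spread was widest, relative to the mean, at 22 °C. In both genotypes replicate 2 was the brighter one at 22 °C. In the gene table HSC70-2 lies next to HSC70-1, a closely related HSP70 gene with no probe set paired with it alone. Whether transcripts of related HSP70 genes add to the signal was not tested.

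HSC70-3, a further cytosolic HSP70, read 29531 and 29073 at 37 °C in samples labelled til1-1, against 2212.5 and 2049.5 at 22 °C. In WT it read 26712 and 24629 at 37 °C, against 2282.9 and 2328.6 at 22 °C. The temperatures were far apart, and the genotypes did not overlap at either of them: samples labelled til1-1 were above WT at 37 °C and below it at 22 °C. The means were 29302 ± 324 and 25670 ± 1473 at 37 °C in til1-1 and WT, and 2131 ± 115 and 2306 ± 32.3 at 22 °C in til1-1 and WT (SD, n = 2 each). The log2 difference between 37 °C and 22 °C was 3.77 ± 0.07 in samples labelled til1-1 and 3.47 ± 0.07 in WT. In intensity units that is 13.8 times and 11.1 times the mean at 22 °C. These values lie high on the scale of the arrays. The brightest probe sets, with controls counted, read 42796 and 42240 in samples labelled til1-1 at 37 °C. In WT at 37 °C they read 36939 and 38127.

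AT1G71000, which encodes a J-domain protein, went furthest of the 4 genes. Its intensity was 18438 and 18271 at 37 °C in samples labelled til1-1, against 15.1 and 21.4 at 22 °C. In WT it was 17644 and 17216 at 37 °C, against 13.4 and 31.1 at 22 °C. The gene thus lay at the lower end of the scale in all samples at 22 °C and at nearly the same high level in all 4 heat-shocked samples. The log2 difference was 9.07 ± 0.17 in samples labelled til1-1 and 8.87 ± 0.17 in WT. Its size rests on the dim side. With 1 in place of 16 added before log2 it was 9.92 in samples labelled til1-1 and 9.66 in WT, and with 64 added it was 7.81 and 7.67 in those genotypes. At 22 °C alone the gene would have been left out as dim, since its mean log2 value there was 5.15 and the filter left out values below 5.64; its presence among the tested probe sets comes from the heat-shocked samples. The other 3 genes were above that limit at 22 °C.

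AT2G20560 encodes the other J-domain protein. Samples labelled til1-1 read 15045 and 15183 at 37 °C, against 93.1 and 100.2 at 22 °C. WT samples read 15456 and 14186 at 37 °C, against 58.8 and 90.1 at 22 °C. At 37 °C the genotypes overlapped, and at 22 °C both samples labelled til1-1 were above both WT samples. The log2 difference between temperatures was 7.07 ± 0.13 in samples labelled til1-1 and 7.38 ± 0.13 in WT. As for HSC70-2 and AT1G71000, replicate 2 was the brighter one at 22 °C in both genotypes. HSC70-3 did not show this: its brighter sample at 22 °C was replicate 1 in samples labelled til1-1 and replicate 2 in WT.

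**Figure D1:**
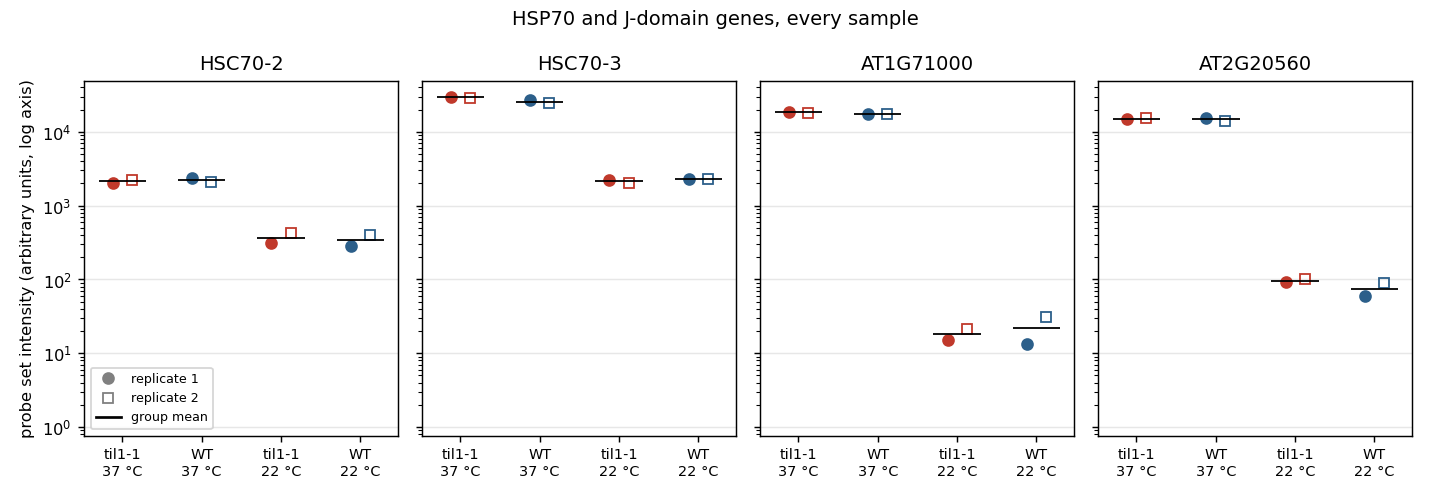
Probe set intensity (arbitrary units, log axis) of the 4 genes in all 8 samples; filled circles are replicate 1, open squares replicate 2 and bars the mean of the 2 samples. AT1G71000 lay between 13.4 and 31.1 at 22 °C and between 17216 and 18438 at 37 °C, while the lowest value of HSC70-3 was 2049.5.

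Among the 4 genes, the levels fell into the same order of conditions only in part. For HSC70-3 and AT1G71000 samples labelled til1-1 at 37 °C stood above WT at 37 °C without overlap, while for HSC70-2 and AT2G20560 these neighbours overlapped. At 22 °C AT2G20560 was higher and HSC70-3 lower in samples labelled til1-1 without overlap, while HSC70-2 and AT1G71000 overlapped. With 2 samples a group such separation is common: 2 of 4 genes did not overlap at 37 °C and 2 of 4 at 22 °C, as did 39.4% and 38.2% of all tested probe sets at these temperatures. At 37 °C 20.9% were higher in samples labelled til1-1 without overlap, the direction of both genes there, and at 22 °C 18.3% were higher and 19.9% lower.

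The genotype comparison asked whether the mutation altered these levels or the response to heat, and the rule that names the genes did not use it. None of the 4 genes passed in any of 3 comparisons, namely samples labelled til1-1 against WT at 37 °C, the same at 22 °C, and the difference between their heat responses. Over all tested probe sets limma called 0.0117% at 37 °C, 0.00586% at 22 °C and 0.00586% for the difference of the responses. Of the 12 tests on the 4 genes, 3 had an unadjusted limma p under 0.05 and 0 passed after Benjamini-Hochberg adjustment. The 12 include AT1G71000 at 22 °C and in the heat response. These cannot decide on a difference, because the gene was below the filter limit at 22 °C. Without adjustment, 13.4%, 3.85% and 6.78% of all probe sets were under 0.05 in the 3 comparisons, in the order named.

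HSC70-3 came nearest. At 37 °C it was 0.19 ± 0.07 higher in samples labelled til1-1 than in WT on the log2 scale, with a 95% confidence interval of 0.04 to 0.35 (limma unadjusted p = 0.0183, adjusted p = 0.272). At 22 °C the difference was -0.11 ± 0.07, with an interval of -0.27 to 0.04 (limma adjusted p = 1). The heat responses differed by 0.31 ± 0.10, with an interval of 0.09 to 0.52 (limma unadjusted p = 0.00966, adjusted p = 0.65). In terms of fold, the interval allows a response between 1.06 and 1.44 times that of WT. After quantile normalization the difference at 37 °C was 0.051 and that of the responses 0.16; after scaling to spiked controls the difference at 37 °C was 0.31.

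Other values also lay apart between the genotypes at 37 °C, the root markers in the opposite direction to HSC70-3. Such separation was common, at 39.4% of all tested probe sets at 37 °C and 38.2% at 22 °C. The 3 measured shoot markers (RCA, LHCB4.1 and LHCB4.2) summed to 65421 and 68545 in samples labelled til1-1 at 37 °C, against 57534 and 61278 in WT at 37 °C. LHCB4.2 taken singly overlapped there, at 12531 and 14582.5 in samples labelled til1-1 against 11094.5 and 13116 in WT. The 3 root markers (PYK10, EXPA7 and EXPA18) summed to 8980 and 9153 in samples labelled til1-1 at 37 °C, against 10643 and 11601 in WT at 37 °C. Most of these root sums was PYK10, at 8843 and 8973 in samples labelled til1-1 and 10387 and 11284 in WT. At 22 °C the root sums were also lower in samples labelled til1-1, at 16423 and 16719 against 17143 and 18836 in WT. The shoot sums overlapped at 22 °C, at 43346 and 46025 in samples labelled til1-1 against 45236 and 48827 in WT. None of these 6 genes passed between the genotypes at 37 °C by limma's adjusted p (0.103 to 0.538). The brightest probe set, which was not identified and may be a control, was also higher on the arrays of samples labelled til1-1 at 37 °C, as given above. Their part in the HSC70-3 values was not tested.

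AT2G20560 was the other gene with an unadjusted p under 0.05. At 22 °C it was 0.34 ± 0.13 higher in samples labelled til1-1 than in WT, with an interval of 0.04 to 0.63 (limma unadjusted p = 0.0277, adjusted p = 1). The interval uses a spread shared by the 4 groups and does not measure that at 22 °C alone. The SDs of the log2 values were 0.064 in til1-1 and 0.36 in WT at 22 °C, against 0.0093 and 0.087 at 37 °C. Without replicate 1 of WT at 22 °C, the dimmest of these samples, the difference was 0.086. At 37 °C it was 0.030 ± 0.13, with an interval of -0.26 to 0.32 (limma adjusted p = 0.95), and the heat responses differed by -0.31 ± 0.19, with an interval of -0.72 to 0.11 (limma adjusted p = 0.805).

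The remaining genes were estimated less closely. Each interval uses a spread shared by the 4 groups, so those at 37 °C or 22 °C do not measure the spread at that temperature alone. The SDs of the log2 values of AT1G71000 were 0.0093 in til1-1 and 0.025 in WT at 37 °C, against 0.19 and 0.48 at 22 °C. For HSC70-2 they were 0.11 and 0.13 at 37 °C, against 0.31 and 0.35 at 22 °C. HSC70-2 differed between samples labelled til1-1 and WT by -0.055 at 37 °C (interval -0.42 to 0.31), by 0.11 at 22 °C (interval -0.25 to 0.48) and by -0.17 in the heat response (interval -0.68 to 0.35). AT1G71000 differed by 0.075 at 37 °C (interval -0.31 to 0.45), by -0.13 at 22 °C (interval -0.51 to 0.25) and by 0.20 in the heat response (interval -0.34 to 0.74). The heat response of TIL was smaller in samples labelled til1-1 (log2 difference -1.75 ± 0.13, limma adjusted p = 0.000204). TIL names the mutant, and where its probes lie with respect to the mutation is unknown here, so it is no yardstick for the 4 genes. Its value lies outside the intervals of HSC70-2, HSC70-3 and AT2G20560. The interval of AT1G71000 leaves out the TIL value too. However, the AT1G71000 values at 22 °C and in the heat response rest on intensities below the filter limit at 22 °C. Differences within the intervals were not resolved with 2 samples a group.

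**Figure D2:**
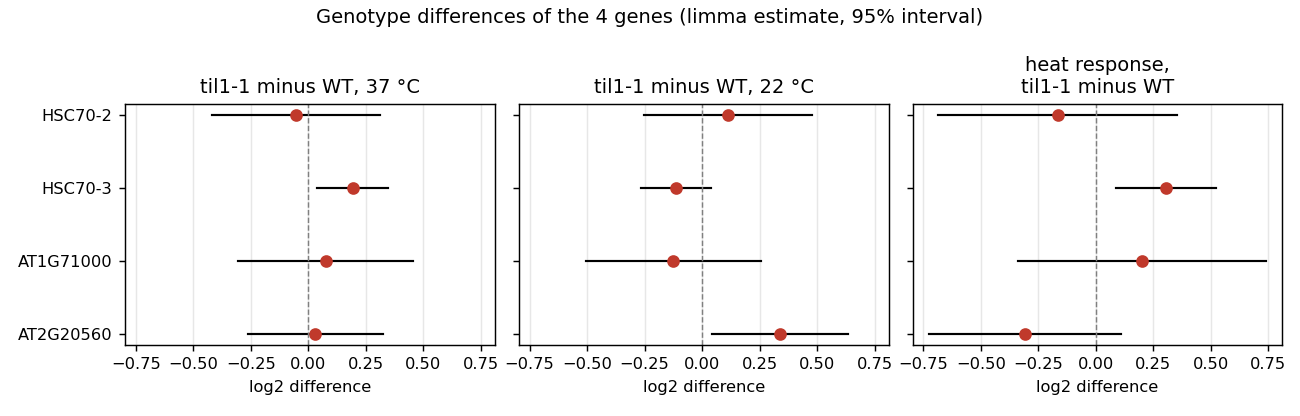
Difference between samples labelled til1-1 and WT at 37 °C, at 22 °C and in the heat response, on the log2 scale, as limma estimates (points) with 95% confidence intervals (lines). The intervals of HSC70-3 at 37 °C (0.04 to 0.35) and in the heat response (0.09 to 0.52) leave out 0 without adjustment. So does that of AT2G20560 at 22 °C (0.04 to 0.63). None of the 12 passed with adjustment. Those of AT1G71000 at 22 °C and in the heat response cannot decide, because the gene was below the filter limit at 22 °C. Every interval uses a spread shared by the 4 groups.

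The genes that work with HSP70 were then examined, from lists of 86 further genes, written from general knowledge. Earlier results of these data were known when the lists were made. Their heat counts and p-values are therefore no independent check. Of the 86 genes, 28 had a probe set of their own and 27 were tested. Heat shock raised 9 and lowered 5 of the 27 in samples labelled til1-1 and raised 7 and lowered 3 in WT. Over all tested probe sets heat shock raised 12.7% and lowered 31.6% in samples labelled til1-1 and raised 12.4% and lowered 31.3% in WT. The median log2 difference of the 27 was 0.056 in samples labelled til1-1 and 0.025 in WT, beside -0.19 and -0.18 over all tested probe sets in those genotypes. With array medians set equal 13 rose and 1 fell in each genotype. After scaling to spiked controls 6 rose and 14 fell in samples labelled til1-1, and 6 rose and 16 fell in WT.

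Of the nucleotide exchange factors, Fes1A (AT3G09350), an HSP70-binding protein of the cytosol needed for acquired thermotolerance, rose most. It read 16859 and 17023 at 37 °C in samples labelled til1-1, against 288.3 and 245.9 at 22 °C. In WT it read 16569 and 16580 at 37 °C, against 218.8 and 245.7 at 22 °C. The log2 difference was 5.91 ± 0.09 in samples labelled til1-1 and 6.06 ± 0.09 in WT (limma adjusted p = 1e-13 and 8.71e-14). Fes1B rose in samples labelled til1-1 (0.35, limma adjusted p = 0.0245), a call lost when 3 of 8 samples were left out in turn; with spiked controls it was at -0.12. In WT it was at 0.17. Fes1C (0.21 in samples labelled til1-1 and 0.13 in WT) and AT1G36390, listed with these factors (0.0060 and 0.060 in those genotypes), did not pass.

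Of the 3 measured HOP genes, 2 rose in both genotypes. HOP3 (Hop3, AT4G12400) read 22981 and 21792 at 37 °C in samples labelled til1-1, against 108.3 and 114.2 at 22 °C, and rose by 7.46 ± 0.10 on the log2 scale. In WT it read 21780 and 18312 at 37 °C, against 99.1 and 112.4 at 22 °C, a rise of 7.36 ± 0.10. HOP2 (Hop2, AT1G62740) rose by 2.64 in samples labelled til1-1 and 2.59 in WT, and HOP1 (Hop1, AT1G12270), at 0.14 and 0.055 in those genotypes, did not pass. Both HSP110-type genes, distant relatives of HSP70, rose: AT1G11660 by 1.40 in samples labelled til1-1 and 1.44 in WT, and AT4G16660 by 0.66 and 0.74, values that did not pass after scaling to spiked controls. No other cytosolic HSP70, no organelle HSP70 and no HSP90 or ClpB gene of the lists was read by a 1-gene probe set, so these were not analysed here.

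Of the J-domain family, 18 genes besides AT1G71000 and AT2G20560 were tested. In samples labelled til1-1 3 rose and 5 fell, and in WT 2 rose and 3 fell; the median log2 difference was -0.11 and -0.15 in those genotypes. These shares of risers stand near the 12.7% and 12.4% over all tested probe sets. With array medians set equal 5 rose and 1 fell in samples labelled til1-1, and 4 rose and 1 fell in WT. After quantile normalization 3 rose and 2 fell in samples labelled til1-1. After scaling to spiked controls 2 rose in each genotype, and 12 fell in samples labelled til1-1 and 14 in WT.

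AT3G14200, a J-domain gene, was the highest riser among these relatives. It read 3595 and 3364 at 37 °C in samples labelled til1-1, against 195.7 and 148 at 22 °C. In WT it read 3424 and 2939 at 37 °C, against 274 and 259.9 at 22 °C. The rise was 4.23 ± 0.13 in samples labelled til1-1 and 3.49 ± 0.13 in WT (limma adjusted p = 6.44e-11 and 4.28e-10). The responses differed by 0.73 ± 0.18 (limma unadjusted p = 0.00144, adjusted p = 0.6), the widest such difference among the 27 genes. At 22 °C both samples labelled til1-1 were below both WT samples, as in 19.9% of all tested probe sets. The log2 difference between samples labelled til1-1 and WT was -0.60 at 22 °C (limma adjusted p = 0.772) and 0.13 at 37 °C (limma adjusted p = 0.689).

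AT4G28480, also listed as a J-domain gene, read 2866 and 2222 at 37 °C in samples labelled til1-1, against 600.1 and 699.5 at 22 °C. In WT it read 3084 and 2420 at 37 °C, against 698 and 775.1 at 22 °C. It rose by 1.94 ± 0.14 in samples labelled til1-1 and by 1.87 ± 0.14 in WT. Other J-domain genes, named after their values were seen, gave small values: AT3G08910 (0.024 in samples labelled til1-1 and -0.19 in WT), AT1G10350 (-0.25 and -0.27), AT3G47940 (-0.12 and -0.12) and AT1G59725 (0.0041 and 0.025) did not pass. AT5G01390 rose in samples labelled til1-1 (0.35, limma adjusted p = 0.0391), a call lost when 5 of 8 samples were left out in turn; with spiked controls it was at -0.11. In WT it was at -0.13. AT5G25530 was too dim to be tested.

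Among the J-domain genes that fell, AT5G49060 changed most, by -1.08 ± 0.25 in samples labelled til1-1 and -1.29 ± 0.25 in WT. AT1G61770 fell by 0.65 in each genotype, a call lost with array medians set equal. AT1G74250 fell in samples labelled til1-1 (-0.77, limma adjusted p = 0.02), a call lost when 3 of 8 samples were left out in turn, with array medians set equal (-0.46) and after quantile normalization (-0.48). In WT it was at -0.56 (limma adjusted p = 0.0775). AT4G10130 (-0.41, limma adjusted p = 0.036) and AT1G18700 (-0.26, limma adjusted p = 0.0466) fell in samples labelled til1-1, calls lost when 5 of 8 samples were left out in turn, and are named after their values were seen. With array medians set equal AT4G10130 was at -0.097 and AT1G18700 at 0.071, and after quantile normalization they were at -0.12 and -0.14. In WT they were at -0.32 and -0.25. ERDJ2A (ATERDJ2A, AT1G79940), a membrane protein of the endoplasmic reticulum that takes part in protein import, fell in WT (-0.43, limma adjusted p = 0.0071) and was at -0.10 in samples labelled til1-1. Its fall was lost without replicate 1 of WT at 22 °C (adjusted p = 0.0764), and with array medians set equal it was at -0.089.

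**Figure D3:**
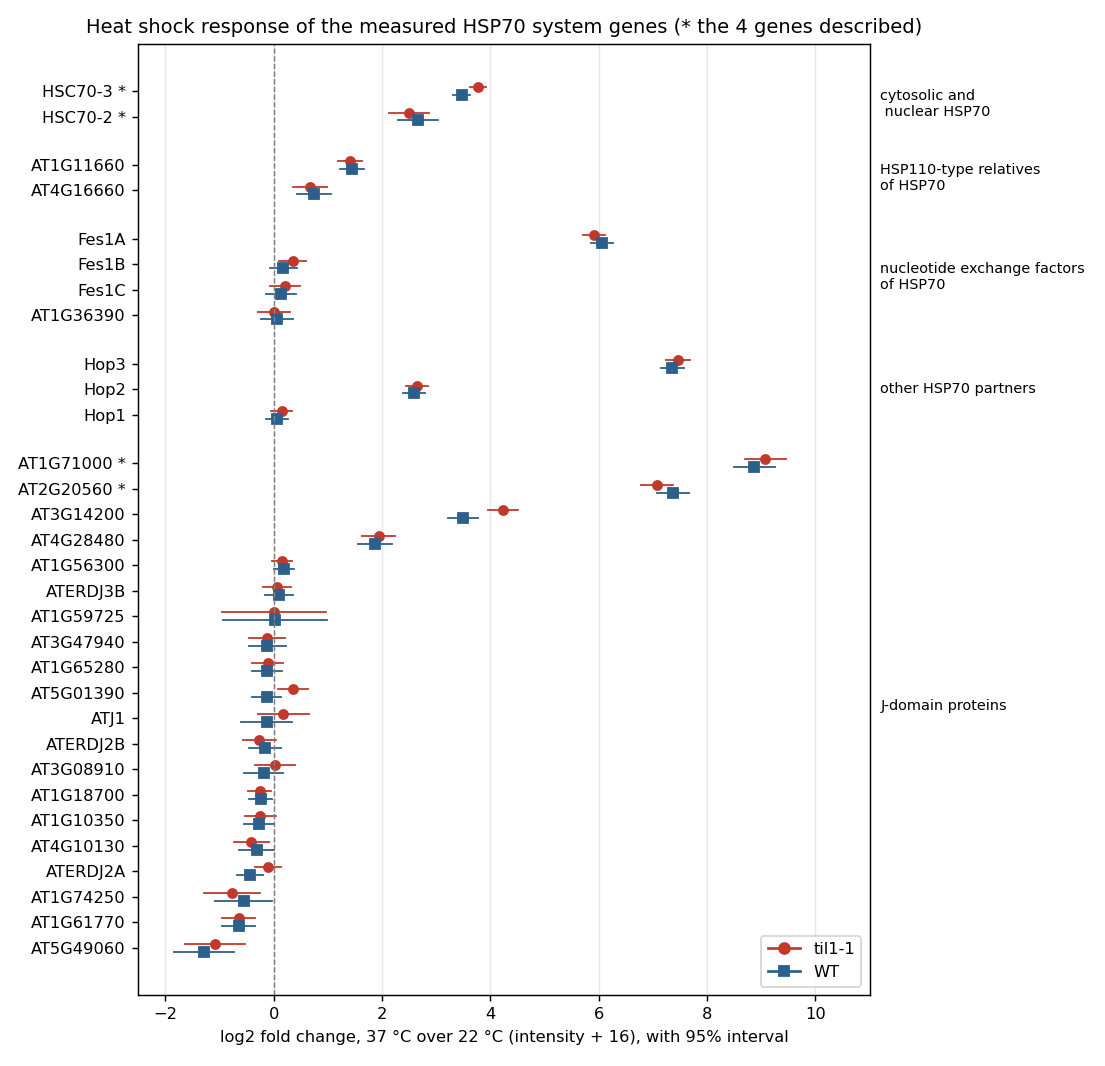
Log2 difference between 37 °C and 22 °C for the 4 genes (starred) and the 27 other tested genes of the HSP70 system, grouped by role; circles are samples labelled til1-1, squares WT, and lines 95% confidence intervals from limma. Fes1A, HOP3, AT1G71000 and AT2G20560 lie near or above 6, while most other J-domain genes lie within 1 of 0.

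None of these 27 genes passed between the genotypes. The log2 difference between samples labelled til1-1 and WT lay between -0.22 and 0.36 at 37 °C and between -0.60 and 0.29 at 22 °C, and the heat responses differed by -0.21 to 0.73. By limma 0 of 27 passed in each comparison after adjustment, and 1, 3 and 2 of them had an unadjusted p under 0.05 at 37 °C, at 22 °C and for the difference of the responses.

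The genes whose course over the 8 samples was most like that of each member were found as the smallest root mean square difference of log2 values, each gene centred on its own mean, among 9355 other tested probe sets paired with 1 gene. Since the temperatures form separate clusters of samples, a high correlation is common here and is given as a description only. For HSC70-2 the nearest was its partner gene HOP2, at a root mean square difference of 0.16 (Pearson r 0.992 over 8 samples), followed by AT1G52870 (0.18) and AT4G09150 (0.19). For HSC70-3 they were AT4G02550 (0.11, r 0.999), AT1G01940 (0.11) and Cpn60beta2 (AT3G13470, 0.13), a chloroplast chaperonin subunit.

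The nearest to AT1G71000 were AT2G29500 (0.39), HSP22.0 (ATHSP22.0, AT4G10250, 0.41), a small heat shock protein that holds unfolding proteins until they can be refolded, and AT1G52560 (0.53). These distances are wider than for the other members, at a Pearson r of 0.998 to 0.999. The distance is not scaled to the size of the heat response, which was largest for AT1G71000. Over all genes named as nearest, Pearson r ran from 0.990 to 0.999. AT2G20560 was nearest to AT5G37670 (0.16), to HOP3 (0.17) and to AT5G51440 (0.20). None of the genes named in these groups passed between the genotypes at 37 °C or in the difference of the heat responses.

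**Figure D4:**
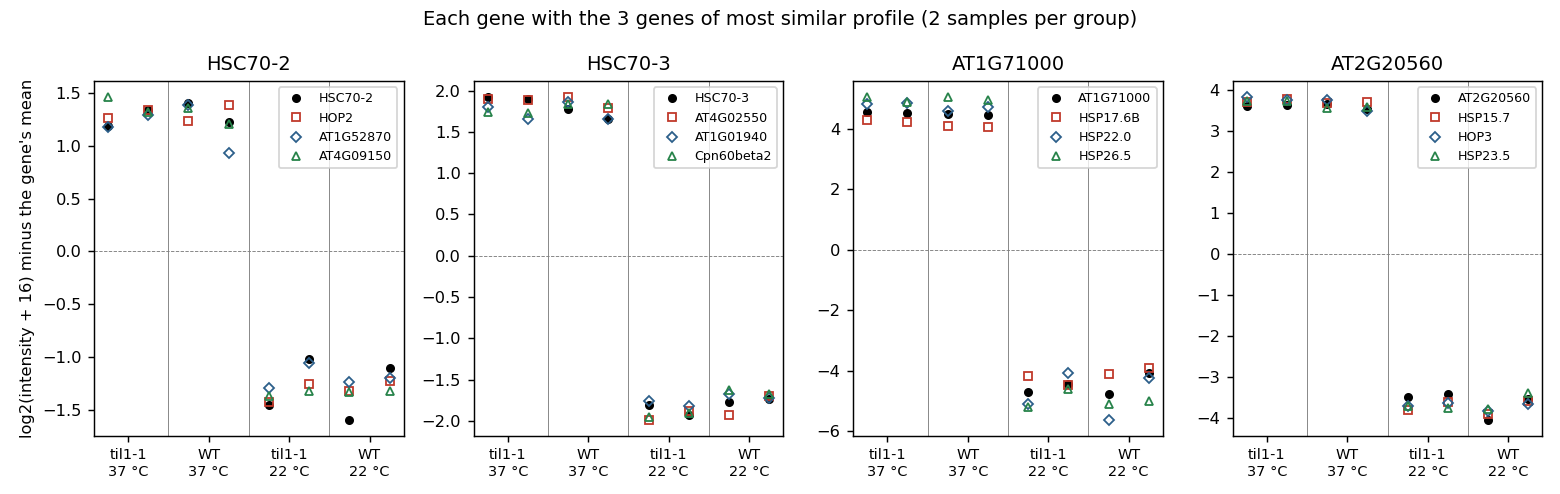
Log2(intensity + 16) minus each gene's mean over the 8 samples, for each of the 4 genes (filled circles) and the 3 genes of most similar course (open symbols); the 2 points within a group are its replicates. The similar genes lie within 0.24 of HSC70-3 at 37 °C and 0.17 at 22 °C, and within 0.56 of AT1G71000 at 37 °C and 0.92 at 22 °C.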

How the data were processed

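Each sample was run on 1 Affymetrix array with a biotin label, per the labels. The deposited values are linear probe set intensities made by the authors with GCOS, per the submitters' processing notes, with no version, algorithm or setting named in the sources used here. The deposited intensities had a mean of 500.04 to 500.05 on every array after 2% of values at each end were left out, so the arrays had been scaled alike. No detection call was used, and the number of arrays limits the precision.

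The 4 genes and the gene lists were chosen with earlier results of these data known. Probe sets were named through the platform annotation and a gene table of the TAIR10.1 assembly, by gene ID; for a gene with several, the brightest was used. Log2(intensity + 16) was tested with limma 3.58.1 in R 4.3.3: 1 mean per group, 4 residual degrees of freedom, a trend with intensity, and p-values adjusted by Benjamini-Hochberg over 17059 probe sets at 0.05, after the 64 controls and the dimmest 25% were left out. The method was tested on simulated data in which a probe set had the same spread in every group. Named besides the 4 genes were TIL, the 3 nearest profiles of each and called list genes, up to 4 per list and direction by fold in WT, with uncalled ones of lists of 6 or fewer. Sequences were not analysed here. SDs are over 2 samples.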

Additional observations from a re-analysis of the deposited data

Results flagged for a closer look

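The heat response of TIL, the gene that names the mutant, differed between the genotypes by limma's test of that difference: it was lower in samples labelled til1-1 than in WT by a log2 difference of -1.75. None of the 4 HSP70 and J-domain genes and none of the 27 other genes of the HSP70 system was picked out in this way.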

How the results depend on the processing

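Results were recomputed under 18 alternatives, the difference of the heat responses under all but the fit of only the groups compared, since it needs all 4 groups: 3 scalings, 2 other constants, 2 other filters, no intensity trend, only the groups compared, the replicate number as a block, and each of 8 samples left out in turn. All 144 heat differences of the 4 genes stayed positive, which their choice for this rise had made likely beforehand. Apart from the fits with a sample left out, no genotype value of these genes passed. Those of AT1G71000 at 22 °C and in the heat response cannot decide on a difference, because the gene was below the filter limit at 22 °C. Of the 212 genotype values, 14 turned sign. With quantile normalization AT1G71000 and AT2G20560 were at -0.026 and -0.059 at 37 °C, and with spiked controls HSC70-2 was at 0.065 at 37 °C and HSC70-3 at 0.019 at 22 °C. With samples left out, HSC70-2 ran from -0.15 to 0.036 at 37 °C, from -0.13 to 0.36 at 22 °C and from -0.41 to 0.079 in the heat response; AT1G71000 from -0.47 to 0.21 at 22 °C and from -0.14 to 0.54 in the heat response; AT2G20560 from -0.032 to 0.091 at 37 °C. For HSC70-3 the lowest adjusted p at 37 °C was 0.185.

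Over all probe sets, spiked controls gave 8 calls between genotypes at 37 °C and 3 at 22 °C, 12182 by heat in samples labelled til1-1 and 11924 in WT, and 22 in the HSP70 system in WT; the median of all probe sets moved to -0.63 and -0.61. Calls at 37 °C and 22 °C were 1 and 0 without a filter, 10 and 0 without the trend, and 1 and 0 with only the groups compared; 1 was left at 37 °C with more dim probe sets left out. Without single samples they ran from 1 to 16 at 37 °C, from 0 to 2 at 22 °C and from 1 to 2 for the difference; for heat from 5536 to 7892 in samples labelled til1-1 and from 5132 to 8058 in WT. The cause was not tested. Same-numbered replicates correlated in their deviations at -0.04 to 0.14, at 0.111 between the genotypes at 37 °C and 0.142 at 22 °C. Not every pair was over 0.1, and no label ties the numbers to a shared batch, so the numbers were not taken to pair the samples. With the replicate block there were 15 calls at 37 °C, against 2 without it, and 3 at 22 °C, against 1, and HSC70-3 stayed at 0.19 (adjusted p = 0.21).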
